A study of Mus musculus with 16 samples.

Results

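The comparison described here set the livers of 4 mice given diallyl disulfide (DADS) together with alcohol against the livers of 4 mice given alcohol alone, 8 of the 16 mice of the series. Members were taken by their sample titles. All mice were male C57BL/6. Both groups received the Lieber-DeCarli ethanol diet, a liquid diet used to induce fatty liver, so alcohol exposure is common to them. The DADS mice were gavaged every day for 4 weeks with 15 mg/kg of DADS in 0.1 ml of olive oil, and the alcohol mice with 0.1 ml of olive oil only. The other groups, of 4 mice each, were pair-fed control mice on the ethanol-free form of the diet and ethanol-fed mice gavaged with 50 mg/kg of garlic oil, both with the same olive oil vehicle; they enter here only as levels for comparison. The comparison asks which liver transcripts differ when DADS is added to an ethanol diet. It has no group given DADS without ethanol.

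DADS is an organosulfur compound of crushed garlic whose allyl sulfides are substrates and inhibitors of the ethanol-oxidising enzyme CYP2E1. Many liver genes that differ between male and female mice are set by the pattern of growth hormone release, which is pulsatile in males and nearly continuous in females and acts through the receptor-activated factor STAT5. Macrophages of the liver, the Kupffer cells, and dendritic cells carry MHC class II molecules, which present peptides to helper T cells.

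Each RNA was read on 1 Illumina BeadChip array, and levels are log2 of the background-corrected, quantile-normalized bead signal. Of 25697 probes, 11202 were detected on at least 4 of the 8 arrays, and they covered 7949 named genes. Detected probes numbered between 10742 and 11526 per array, and replicates correlated at 0.979 to 0.989 for DADS and at 0.973 to 0.987 for alcohol. Both DADS and garlic oil arrays lay on 1 chip and both alcohol and control arrays on another, so that chip and treatment cannot be told apart in DADS against alcohol. Differences between DADS and garlic oil, and between alcohol and control, lay within a chip and are given beside the main ones for part of the genes. They share arrays with the main comparison. The liver marker list had all 12 of its members on the array tested, with none changed. Alcohol replicate 1 stood apart: of 32 probes for pancreatic acinar genes detected on any array, 28 read over 4 log2 units higher there than on every other array. Results are therefore also given from a fit that was normalized again without that array.

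In the whole comparison 241 genes changed (adjusted p under 0.05, limma with Benjamini-Hochberg adjustment over 7949 genes), which is 3.03% of those tested. Of these 107 rose (1.35%) and 134 fell (1.69%), and 24 rises and 40 falls were at least 2-fold. The median log2 difference of all genes, DADS minus alcohol, was 0.02. In 745 genes (9.37%) the 4 DADS values and the 4 alcohol values did not overlap, 377 with DADS higher (4.74%) and 368 with DADS lower (4.63%). When arrays were scaled by their median in place of quantiles, 707 genes rose and 91 fell and the median of all genes moved to 0.19, so the balance of rises and falls depends on the scaling; the 241 genes kept their sign. The number of changed genes was 140 without the acinar array, 107 without DADS replicate 3, 126 without alcohol replicate 2 and 100 without alcohol replicate 3. In the fit of the 8 arrays alone it was 63, and all 241 genes had the same sign there. The comparisons within a chip changed 296 genes for alcohol against control (3.72%) and 149 for DADS against garlic oil (1.87%).

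Genes with male-biased expression were lower with DADS. Of 30 members of the male-biased list 23 passed the detection filter, and 22 of these were lower and 12 fell (1.69% of all genes fell), with a median log2 difference of -1.04. Of the 18 members detected on all 8 arrays 18 were lower and 11 fell, with a median of -1.05. Mup21, a major urinary protein, read 9.14, 9.71, 9.53 and 10.78 on DADS replicates 1 to 4 and 12.30, 12.84, 12.62 and 11.48 on alcohol replicates 1 to 4. The groups did not overlap, and Mup21 fell 5.75-fold (log2 difference -2.52 ± 0.30 SE, n = 4 a group, adjusted p = 0.00114, limma). Its mean level was 14.03 in control and 11.59 in garlic oil mice, and DADS lay below garlic oil on the same chip (-1.81, adjusted p = 0.00613). Elovl3, an elongase of very long fatty acids, read 5.05, 4.98, 5.68 and 6.43 with DADS and 9.47, 9.80, 8.71 and 6.93 with alcohol. It was detected on 2 of 4 DADS arrays and was at least 7.52-fold lower (adjusted p = 0.00396). DADS replicate 4 was the highest of its group and alcohol replicate 4 the lowest of its group for both genes.

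Replicate 4 of each group stood nearest the other group in further male-biased genes as well. Cyp4a12a, a fatty acid hydroxylase, read 9.29, 9.19, 9.49 and 11.61 with DADS and 12.95, 13.50, 12.57 and 11.03 with alcohol, so that the groups overlapped through replicate 4 of each, and it fell 6.13-fold (adjusted p = 0.0191; 0.0547 without DADS replicate 3 and 0.0564 without alcohol replicate 2). Serpina1e, an α1-antitrypsin, read 10.50, 11.31, 11.28 and 14.04 with DADS and 15.81, 15.71, 15.61 and 12.55 with alcohol (log2 difference -3.14 ± 0.76, adjusted p = 0.0377), and its call was lost without any 1 of 6 arrays (adjusted p up to 0.0931). Its higher alcohol values lay near the highest level of any tested gene, 15.87, where a difference can be understated. DADS minus garlic oil did not pass for Cyp4a12a (-0.94, adjusted p = 0.403) or Serpina1e (-1.15, adjusted p = 0.467). Hsd3b5, a steroid dehydrogenase of male liver, read 5.08, 5.33, 5.33 and 8.11 with DADS and 11.93, 12.79, 11.66 and 6.04 with alcohol, and its log2 difference of -4.64 ± 1.24 did not pass (adjusted p = 0.0507). Mup and Serpina1 genes have near-identical relatives, so their probes may read more than 1 member. Over the male-biased list, the median log2 deviation was -0.92, -0.66, -0.62 and -0.04 on DADS replicates 1 to 4 and 0.46, 0.77, 0.70 and -0.16 on alcohol replicates 1 to 4. The lists thus overlapped between the groups only through replicate 4 of each. Without alcohol replicate 4 the number of fallen members was 17, without alcohol replicate 2 it was 7, and without alcohol replicate 3 it was 8; without the acinar array it was 8 and in the 8-array fit 4.

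Components of complement form a further part of the male-biased list. C6, C8a, C8b and C9, subunits of the membrane attack complex, all fell. C9 read 10.63, 11.50, 10.83 and 11.25 with DADS and 12.72, 12.40, 12.43 and 12.56 with alcohol, without overlap (-1.48 ± 0.21, adjusted p = 0.00215). C6 fell 3.45-fold (adjusted p = 0.00499), and its control mean of 12.15 lay above that of alcohol (alcohol minus control -1.32, adjusted p = 0.0162). DADS minus garlic oil was -0.60 for C6 and did not pass (adjusted p = 0.301). C8a (-0.92) and C8b (-0.75) fell less on the log2 scale, with adjusted p of 0.0237 and 0.0235, and the call of C8a was lost without any 1 of 3 arrays and that of C8b without any 1 of 5. In the list of 41 measured acute-phase and complement genes, C8a, C8b and C9 were the 3 fallen members (1.69% of all genes fell), and Apcs, the serum amyloid P component, was the 1 risen member (1.35% of all genes rose; 1.34 ± 0.34, adjusted p = 0.0416). Apcs overlapped between the groups, and its call was lost without any 1 of 7 arrays (adjusted p up to 0.0918). The number of fallen members of the list was 1 without DADS replicate 2, alcohol replicate 2 or alcohol replicate 3 and 5 without DADS replicate 3. Egfr, a receptor tyrosine kinase, fell by its brightest probe (-1.36 ± 0.27, adjusted p = 0.0148); a second probe gave -1.28 ± 0.32 and a further one -0.19 ± 0.39. In the fit without the acinar array the last probe stood for the gene and it did not pass (-0.40, adjusted p = 0.654).

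Female-biased genes moved the other way. Of 29 members 8 passed the detection filter, and 7 of these were higher and 6 rose (1.35% of all genes rose). Cux2 and Cyp2c39 passed the filter through their DADS arrays, so that the count over passing members is a description only. Of the 6 members detected on all 8 arrays 5 were higher and 4 rose, with a median log2 difference of 1.77. With no filter on dim probes the list median was 0.31. Cux2, a transcription factor of female liver, read 9.06, 8.30, 7.50 and 7.36 with DADS and 5.15, 5.47, 5.18 and 5.41 with alcohol. It was detected on no alcohol and no control array and on all 4 DADS arrays, and was at least 5.25-fold higher (adjusted p = 0.00676). Its garlic oil mean was 6.27, and DADS minus garlic oil was 1.78 (adjusted p = 0.0635). Cyp17a1, a steroid 17α-hydroxylase, read 10.54, 12.34, 11.68 and 10.45 with DADS and 8.83, 8.69, 7.61 and 9.84 with alcohol, without overlap, and rose 5.69-fold (adjusted p = 0.00698). Its garlic oil mean was 11.49, and DADS minus garlic oil was -0.23 (adjusted p = 0.836).

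Cyp2b9, a cytochrome P450 of female liver, read 13.38, 13.27, 13.14 and 11.91 with DADS and 10.81, 10.71, 10.89 and 11.66 with alcohol, and rose 3.75-fold (1.91 ± 0.33, adjusted p = 0.00686). The ethanol diet alone had already raised it from a control mean of 6.09, with detection on 2 of 4 control arrays (alcohol minus control 4.92, adjusted p = 2.34e-07). Cyp2c39, detected on 1 of 4 alcohol arrays, was at least 1.61-fold higher (adjusted p = 0.00742). Vldlr, the very-low-density lipoprotein receptor, read 10.14, 9.36, 9.40 and 9.28 with DADS and 7.52, 8.17, 7.62 and 8.83 with alcohol (1.51 ± 0.34, adjusted p = 0.0259), and its call was lost without DADS replicate 1 or 3 and without alcohol replicate 1 or 3. Median deviations of the female-biased list were 1.38, 0.95, 0.99 and 0.35 on DADS replicates 1 to 4 and -1.22, -1.09, -1.13 and -0.08 on alcohol replicates 1 to 4, with no overlap and again with replicate 4 of each group nearest the other. The number of risen members was 4 without the acinar array and 4 without alcohol replicate 3.

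**Figure D1:**
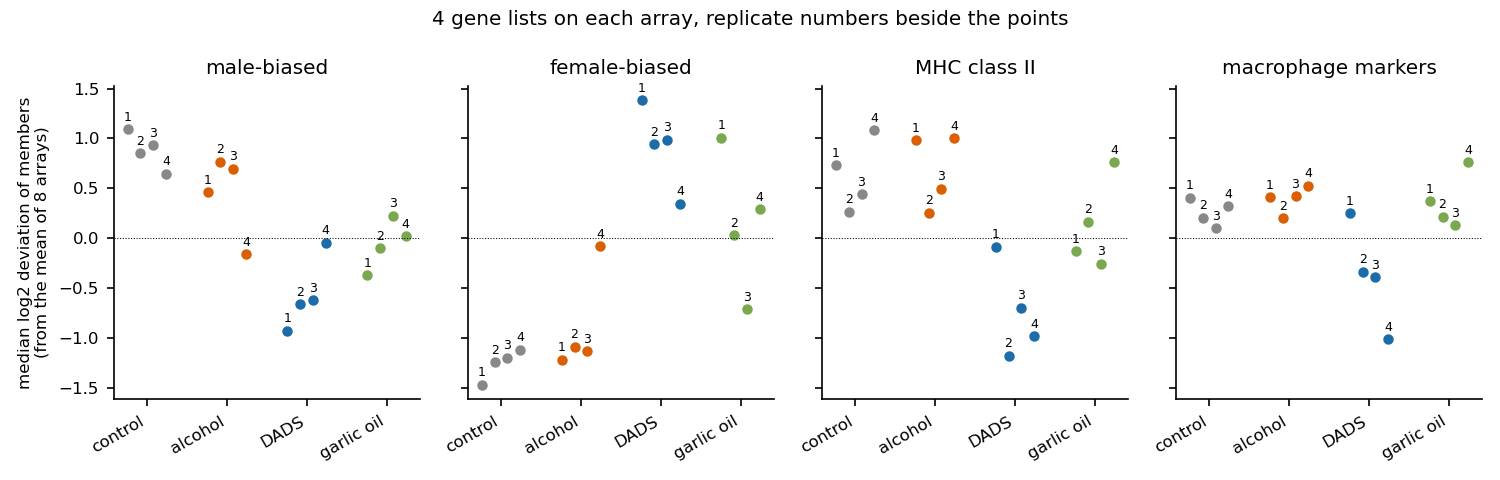
Median log2 deviation of the members of 4 gene lists on each of the 16 arrays, taken from each gene's mean over the 8 DADS and alcohol arrays; each point is 1 array with its replicate number. Male-biased genes ran from -0.92 to -0.04 with DADS and from -0.16 to 0.77 with alcohol, female-biased genes from 0.35 to 1.38 and from -1.22 to -0.08, and for macrophage markers DADS replicate 1 lay among the alcohol arrays.

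Of 15 measured genes of the growth hormone pathway itself 2 rose, Cux2 and Socs2, and 1 fell, Egfr (1.35% of all genes rose and 1.69% fell). When any 1 array was left out, 1 rose. Cux2 passed the detection filter through its DADS arrays. Of the 13 members detected on all 8 arrays 1 rose and 1 fell. Socs2, a feedback inhibitor of growth hormone signalling, read 11.11, 10.56, 9.46 and 9.80 with DADS and 6.95, 8.37, 8.39 and 8.34 with alcohol. The groups did not overlap (2.22 ± 0.57, adjusted p = 0.0454), but the call was lost without any 1 of the 8 arrays (adjusted p between 0.0557 and 0.111). Alcohol lay below control for Socs2 (-2.59, adjusted p = 0.0162), whose control mean was 10.60. The growth hormone receptor Ghr (-0.44 ± 0.20, 95% interval -0.87 to -0.02, adjusted p = 0.245; -0.69 and adjusted p = 0.0325 without DADS replicate 4), Igf1, the circulating growth factor it induces (0.09 ± 0.18, interval -0.30 to 0.48), and Bcl6, a repressor enriched in male liver (0.20 ± 0.64, interval -1.16 to 1.55), did not pass. A second, dimmer probe of Ghr gave -0.63 ± 0.17 (unadjusted p = 0.00187, limma). Stat5b did not pass the detection filter. Among RefSeq promoters (250 bases before to 50 after the start, GRCm38.p6; 6517 of the tested genes matched), the STAT5 motif TTCNNNGAA, searched on both strands, was found in 8.36% of all, in 8 of 88 risen and in 10 of 108 fallen genes.

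MHC class II genes fell together. Of 7 members 6 were measured, each on all 8 arrays, and all 6 fell, against 1.69% of all genes, and in all 6 the groups did not overlap, against 4.63% of all genes with DADS lower. Cd74, the invariant chain that escorts class II molecules, read 9.81, 8.76, 9.21 and 8.69 with DADS and 11.34, 10.16, 10.54 and 11.24 with alcohol, and fell 3.26-fold (-1.70 ± 0.29, adjusted p = 0.00589). H2-Eb1, a class II β chain, read 8.73, 7.39, 7.30 and 7.43 with DADS and 9.80, 9.10, 9.002 and 9.50 with alcohol (-1.64 ± 0.32, adjusted p = 0.014). H2-Aa and H2-Ab1, the chains of the other class II molecule, fell 2.93-fold (adjusted p = 0.0149) and 2.88-fold (adjusted p = 0.0098). H2-DMa and H2-DMb1, which load peptides onto class II molecules, fell by 1.09 and 0.87 on the log2 scale (adjusted p = 0.00698 and 0.0416). DADS replicate 1 had the highest DADS value for each of the 6 genes. The list median of alcohol minus control was 0.10 on the log2 scale, and Cd74 also lay below garlic oil on the same chip (-1.19, adjusted p = 0.0409). DADS minus garlic oil did not pass for H2-Eb1 (-0.94, adjusted p = 0.134) or H2-Aa (-1.05, adjusted p = 0.0887). Nor did it for H2-Ab1 (-0.81, adjusted p = 0.15) or H2-DMa (-0.59, adjusted p = 0.117). Without the acinar array 5 of the 6 passed, with a list median of -1.47, and 5 or 6 passed in every alternative run.

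Class II promoters carry conserved X and Y boxes near the start site, and the stretches from 110 bases before the start are shown for the fallen class II genes with a match to their cores. The boxes' cores TGATTGG (Y box) and TGATGATG (part of the X box) were searched on both strands over the whole promoter window, and both were chosen after the fall of these genes had been seen; matches are in capitals (RefSeq, GRCm38.p6).
H2-Eb1 (chr17:34305757-34305866, plus strand): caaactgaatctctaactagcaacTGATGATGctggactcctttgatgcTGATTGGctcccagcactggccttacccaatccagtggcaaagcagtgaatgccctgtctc
H2-DMb1 (chr17:34153081-34153190, plus strand): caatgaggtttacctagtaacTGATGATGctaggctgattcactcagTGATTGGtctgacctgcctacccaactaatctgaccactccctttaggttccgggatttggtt
H2-Aa (chr17:34287824-34287933, minus strand): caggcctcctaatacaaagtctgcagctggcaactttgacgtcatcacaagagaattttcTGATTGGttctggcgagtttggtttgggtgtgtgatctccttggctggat
Of the 4 class II genes with a promoter in the table, 3 held TGATTGG, against 11.4% of all 6517 promoters, and 2 held TGATGATG, against 0.844%. Counted from the start site, the matches began at -61 (TGATTGG) and -86 (TGATGATG) in H2-Eb1, at -63 and -89 in H2-DMb1 and, for TGATTGG alone, at -50 in H2-Aa. H2-DMa held neither core.

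Macrophage markers were lower beside the class II genes. Of 25 members of the Kupffer cell and macrophage list 18 passed the detection filter, all 18 were lower and 9 fell, against 1.69% of all genes, with a median log2 difference of -0.73. Of the 16 detected on all 8 arrays 8 fell, with a median of -0.72. C1qc, a chain of the complement initiator C1q made by macrophages, read 10.43, 9.84, 9.95 and 9.06 with DADS and 10.82, 10.69, 10.89 and 11.11 with alcohol (-1.06 ± 0.21, adjusted p = 0.0148). C1qc also lay below garlic oil on the same chip (-1.02, adjusted p = 0.0204). Adgre1, a surface receptor typical of mouse macrophages, read 10.26, 9.08, 9.19 and 8.88 with DADS and 10.39, 10.57, 10.27 and 10.43 with alcohol (-1.06 ± 0.25, adjusted p = 0.029; lost without any 1 of 6 arrays). In neither gene did the groups overlap, and DADS replicate 1 lay close to the alcohol arrays in Adgre1. Against garlic oil Adgre1 did not pass (-0.89, adjusted p = 0.0706). Nor did the fallen list members C1qa (-0.55, adjusted p = 0.0634) and Fcer1g (-0.88, adjusted p = 0.0634). Clec4f (-0.75), Timd4 (-0.87) and Vsig4 (-1.08), receptors of resident Kupffer cells, fell with adjusted p between 0.0377 and 0.0423.

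The number of macrophage markers past the test was unstable. It was 9 with all arrays or without DADS replicate 1, 5 without alcohol replicate 2 or 4, 3 without DADS replicate 2, 2 without DADS replicate 3 or 4, and 1 without alcohol replicate 1 or 3. In the fit normalized again without the acinar array 1 passed, with a median of -0.73, and in the 8-array fit 1 passed. The summed level of the list on the linear scale was 14971 to 24072 on DADS arrays and 21229 to 25076 on alcohol arrays; DADS replicate 1 had the 24072. Cd5l, Msr1 and Cybb were detected on no array of either group, and Cd68 was not measured. In whole liver, fewer cells of a type and less RNA per cell cannot be told apart, and the part of macrophage number in the fall of class II genes was not tested. Hepatocyte markers summed to 302490 to 333020 with DADS and 311780 to 341540 with alcohol. Among 17 endothelial markers Lyve1 fell (-1.16 ± 0.28, adjusted p = 0.0379), and among 18 stellate and matrix genes Vim fell (-0.95 ± 0.22, adjusted p = 0.0265). Of 2 lymphocyte markers Cd79b fell (at least 1.69-fold, adjusted p = 0.0478). Each of these lists had 1 fallen member, where 1.69% of all genes fell. Vim was detected on 3 and Cd79b on 2 of 4 DADS arrays. Among the 14 stellate and matrix genes and the 1 lymphocyte marker detected on all 8 arrays 0 fell. Lyve1 lost its call without any 1 of 5 arrays, Vim without alcohol replicate 1 or 3, and Cd79b without any 1 of 7 arrays.

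**Figure D2:**
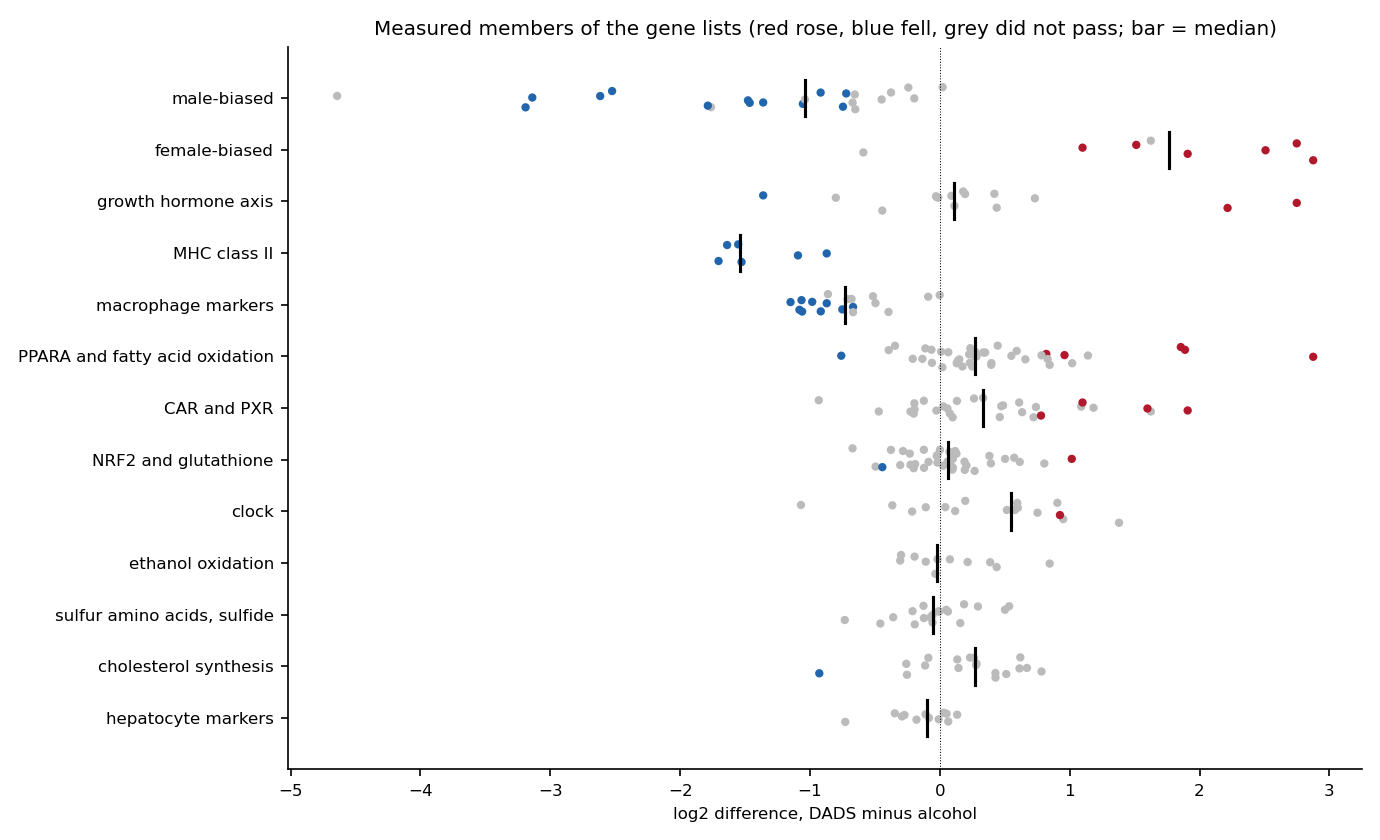
Log2 difference, DADS minus alcohol, of each measured member of 13 gene lists; each point is a gene, red points rose and blue points fell at an adjusted p under 0.05, and the bar is the list median. Of the male-biased genes 22 of 23 and all 6 MHC class II genes and 18 macrophage markers lie left of 0, and 7 of 8 female-biased genes lie right of 0, while hepatocyte markers have a median of -0.10.

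Genes of fatty acid oxidation and PPARA, the fatty acid-sensing receptor that drives them, were mostly higher. Of 41 measured members 33 were higher, 5 rose and 1 fell, with a median log2 difference of 0.27; over all genes tested 53.2% were higher, 1.35% rose and 1.69% fell, with a median of 0.02. Ppara itself read 6.96, 7.39, 6.92 and 7.10 with DADS and 6.50, 6.04, 6.32 and 6.22 with alcohol, without overlap (0.82 ± 0.16, adjusted p = 0.0118). Against garlic oil on the same chip Ppara did not pass (0.18, adjusted p = 0.603). Acot3, a peroxisomal acyl-CoA thioesterase, read 13.55, 12.54, 13.00 and 12.96 with DADS and 9.45, 10.61, 8.94 and 11.55 with alcohol, and rose 7.34-fold (2.88 ± 0.60, adjusted p = 0.0191; adjusted p = 0.0576 without alcohol replicate 3). Acot3 and Apoa4 also belong to other lists here, Acot3 to the female-biased list. Apoa4, an apolipoprotein of triglyceride-rich particles, read 14.30, 14.16, 14.80 and 14.01 with DADS and 13.15, 12.13, 12.06 and 12.51 with alcohol, and rose 3.62-fold (adjusted p = 0.00282); it also exceeded garlic oil (1.42, adjusted p = 0.0152). Cyp4a14, a PPARA-responsive fatty acid hydroxylase, rose 1.95-fold (adjusted p = 0.0259; lost without DADS replicate 1, 2 or 3), with DADS values of 15.34 to 15.71 near the highest level of any tested gene, 15.87, where a fold can be understated.

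Fgf21, a fasting hormone of the liver, read 11.37, 10.54, 9.63 and 9.58 with DADS and 8.19, 9.12, 7.29 and 8.96 with alcohol (1.89 ± 0.50, adjusted p = 0.0492). Its call was lost without any 1 of 6 arrays (adjusted p up to 0.133). The fallen member, Fabp1, a fatty acid-binding protein, was read by a single dim probe that was detected on no DADS array (at least 1.35-fold lower, adjusted p = 0.0317). Cpt1a, the gatekeeper of mitochondrial fatty acid import, did not pass (-0.06 ± 0.16, 95% interval -0.41 to 0.28). The count of risen members was 3 without DADS replicate 1, DADS replicate 3 or alcohol replicate 3, 4 without the acinar array and 14 with median scaling, under which the median of all genes was also higher.

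Lipid synthesis genes gave 1 changed member of 24 measured, a share near the 3.03% of all genes, and the list median was -0.04. Lpin1, a phosphatidate phosphatase and nuclear coregulator, read 5.75, 7.27, 7.12 and 7.07 with DADS and 8.25, 9.19, 9.66 and 7.65 with alcohol, and fell 3.69-fold (adjusted p = 0.0241). Lpin1 was higher with alcohol than in control mice (2.56, adjusted p = 0.00225) and differed by -3.39 between DADS and garlic oil (adjusted p = 0.000441); its call was lost without DADS replicate 1 and without alcohol replicate 2 or 3 (adjusted p up to 0.0757). Scd1, a stearoyl-CoA desaturase, read 14.38, 14.77, 13.71 and 13.72 with DADS and 14.09, 15.37, 15.43 and 15.40 with alcohol. With all arrays it did not pass (adjusted p = 0.11), and without the acinar array, which held the low alcohol value, it did (-1.26, adjusted p = 0.028). Srebf1, Fasn and the lipid droplet coat gene Plin2 did not pass, with 95% intervals of -0.99 to 0.19, -0.40 to 0.36 and -0.73 to 0.62. Insig2, which holds back sterol-regulated transcription, fell by its brightest probe (-0.93 ± 0.17, adjusted p = 0.00742; 0.0523 in the 8-array fit). Its other probes gave -0.93 ± 0.36 and -0.52 ± 0.28, and in both the groups overlapped. Insig2 was the 1 changed member of 18 cholesterol synthesis genes, against 3.03% of all genes. Cyp7a1, whose enzyme starts the classical conversion of cholesterol to bile acids, read 8.62, 6.61, 10.37 and 9.77 with DADS and 6.44, 6.69, 8.61 and 5.53 with alcohol and did not pass (2.03 ± 0.68, adjusted p = 0.113), but it passed without DADS replicate 2 (2.77, adjusted p = 0.0251) and with median scaling (adjusted p = 0.0461).

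Of 26 bile acid genes 2 rose, against 1.35% of all genes. Slc51b, a subunit of the basolateral bile acid exporter, was at least 1.95-fold higher (adjusted p = 0.00589). Akr1d1, a steroid reductase of bile acid synthesis, was at least 1.37-fold higher (adjusted p = 0.0421, lost without any 1 of 7 arrays). Both passed the detection filter through their DADS arrays, so that the count is a description only. Of the 21 bile acid genes detected on all 8 arrays 0 rose and 0 fell. Of 22 glucose and insulin genes 1 changed, against 3.03% of all genes. This was G6pc, which releases free glucose in the final step of gluconeogenesis. It read 12.03, 12.60, 11.88 and 11.60 with DADS and 13.31, 14.07, 13.55 and 13.42 with alcohol, without overlap, and fell 2.94-fold (-1.56 ± 0.21, adjusted p = 0.00159).

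Xenobiotic genes of the receptors CAR and PXR were higher in 21 of 29, with 4 rises and a median log2 difference of 0.33, where 53.2% of all genes were higher and 1.35% rose. Beside Cyp2b9 and Cyp2c39 these were Nr1i3, the gene of CAR (0.78 ± 0.18, adjusted p = 0.0326; lost without any 1 of 4 arrays), and Cyp2b23 (1.60 ± 0.42, adjusted p = 0.0469), which lost its call without any 1 of 6 arrays. DADS minus garlic oil was 0.01 for Nr1i3 (adjusted p = 0.98) and 0.10 for Cyp2b23 (adjusted p = 0.929). Cyp2c39 passed the detection filter through its DADS arrays, so that the count over passing members is a description only. Of the 27 members detected on all 8 arrays 19 were higher and 3 rose, with a median of 0.26. Cyp2b10, the usual marker of CAR activity, read 10.03, 11.00, 8.53 and 8.36 with DADS and 9.45, 10.44, 10.43 and 9.48 with alcohol, and did not pass (-0.47 ± 0.45, 95% interval -1.42 to 0.49). It was detected on no control array and on all 4 alcohol arrays (adjusted p = 5.49e-06 for alcohol against control). Cyp2b genes are near-identical relatives whose probes may not separate them. The number of risen members was 2 without DADS replicate 3, alcohol replicate 2 or alcohol replicate 3, 6 without alcohol replicate 4 and 14 with median scaling.

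Genes of ethanol oxidation and of sulfur metabolism showed no change past the test. Cyp2e1 read 15.69, 15.57, 15.60 and 15.69 with DADS and 15.69, 15.72, 15.56 and 15.64 with alcohol. The values overlapped throughout, and the log2 difference of -0.02 ± 0.10 had a 95% interval of -0.22 to 0.18. The highest level of any tested gene was 15.87, so that differences of Cyp2e1 could be compressed at the top of the range. None of 11 ethanol oxidation genes and none of 20 genes of sulfur amino acids and sulfide passed, among them Cbs (interval -0.54 to 0.15) and Cth (interval -0.26 to 0.84), enzymes of transsulfuration. Of 38 genes of NRF2, a transcription factor that answers electrophile stress, and of glutathione use, 1 rose and 1 fell, shares near the 1.35% and 1.69% of all genes. Gstt2, a theta-class glutathione transferase, rose 2.02-fold (adjusted p = 0.0148), and Taldo1, of the pentose phosphate pathway, fell 1.36-fold (adjusted p = 0.0478, lost without any 1 of 6 arrays). Nqo1 read 6.92, 7.22, 6.66 and 5.87 with DADS and 5.76, 5.25, 6.42 and 6.01 with alcohol and did not pass (0.81 ± 0.29, adjusted p = 0.138), nor did Hmox1 (-0.49 ± 0.26, adjusted p = 0.31) or Gclc (-0.38 ± 0.31, adjusted p = 0.551). The NRF2 core TGACNNNGC was found in 16.7% of all promoters, 12 of 88 risen and 16 of 108 fallen genes. Hdac1, one of the histone deacetylases that allyl sulfides are known for inhibiting in cell culture, did not pass (0.29 ± 0.18, interval -0.10 to 0.67).

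Further changes fell outside these pathways. Car3, a carbonic anhydrase abundant in liver and fat, read 9.90, 9.83, 11.08 and 11.74 with DADS and 13.12, 13.26, 13.46 and 13.38 with alcohol, without overlap, and fell 6.33-fold (-2.66 ± 0.34, adjusted p = 0.00114). Ces3b, a carboxylesterase, fell 3.26-fold (-1.70 ± 0.25, adjusted p = 0.00282). Both also lay below garlic oil on the same chip, Car3 by -1.92 (adjusted p = 0.00862) and Ces3b by -1.69 (adjusted p = 0.0021). Tgm1, a transglutaminase, read 7.95, 7.78, 7.97 and 7.76 with DADS and 6.21, 6.20, 6.55 and 6.57 with alcohol, and rose 2.79-fold (1.48 ± 0.19, adjusted p = 0.00114). Its control mean was 7.10 and its garlic oil mean 6.35, and DADS exceeded garlic oil by 1.51 (adjusted p = 0.000441). Gadd45a, a gene induced by DNA damage, was lower with alcohol than in control mice (-1.46, adjusted p = 0.0315) and rose with DADS (1.58 ± 0.36, adjusted p = 0.0265). Tsc22d1, a transcriptional regulator, fell with alcohol against control (-3.00, adjusted p = 4.39e-05) and fell further with DADS (-1.98 ± 0.33, adjusted p = 0.00589), where 2 of 4 arrays detected it and the size is uncertain. Gadd45a lost its call without any 1 of 6 arrays.

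Chil3, a chitinase-like protein detected on 1 of 4 alcohol arrays, was at least 1.94-fold higher (adjusted p = 0.0148), and Rnf186, a ubiquitin ligase gene, rose 2.53-fold (adjusted p = 0.0211; lost without alcohol replicate 2 or 3). Axin2 and Tbx3, targets of WNT signalling near the central vein, rose by 0.79 ± 0.19 and 0.84 ± 0.22 on the log2 scale (adjusted p = 0.0373 and 0.046). They were the 2 changed members of 20 pericentral genes, where 1.35% of all genes rose. With median scaling 8 pericentral genes rose, and 0 rose without DADS replicate 1, 2 or 3 or alcohol replicate 2 or 3. Both Axin2 and Tbx3 exceeded garlic oil (0.92, adjusted p = 0.0214, and 1.32, adjusted p = 0.00549). Axin2 lost its call without any 1 of 7 arrays and Tbx3 without any 1 of 5. Of 17 periportal genes Apoa4 rose and Cyp2f2, a P450, fell (-0.72 ± 0.14, adjusted p = 0.014), against 1.35% and 1.69% of all genes. Tef, an output factor of the circadian clock, rose (0.93 ± 0.17, adjusted p = 0.00742). It was the 1 changed member of 16 clock genes, against 3.03% of all genes. The number of risen clock genes was 4 without DADS replicate 2, 2 without DADS replicate 1 and 6 with median scaling. The E-box CACGTG, which clock factors bind, was found in 11.8% of all promoters, 16 of 88 risen and 8 of 108 fallen genes, and the perfect direct repeat element of PPARA and HNF4A in 0.046% of all and in no risen or fallen gene. Rdh9, a retinol dehydrogenase, rose 1.94-fold (adjusted p = 0.0183) and lost its call without DADS replicate 3 or alcohol replicate 3. It was the 1 changed member of 13 retinoid genes, against 3.03% of all genes. Alas2, the heme synthesis enzyme of red cells, fell 2.87-fold (-1.52 ± 0.24, adjusted p = 0.0044); all 4 measured erythroid markers were lower, and their summed level was 15141 to 21731 with DADS and 18398 to 30683 with alcohol. The part of blood content in the fall of Alas2 was not tested.

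**Figure D3:**
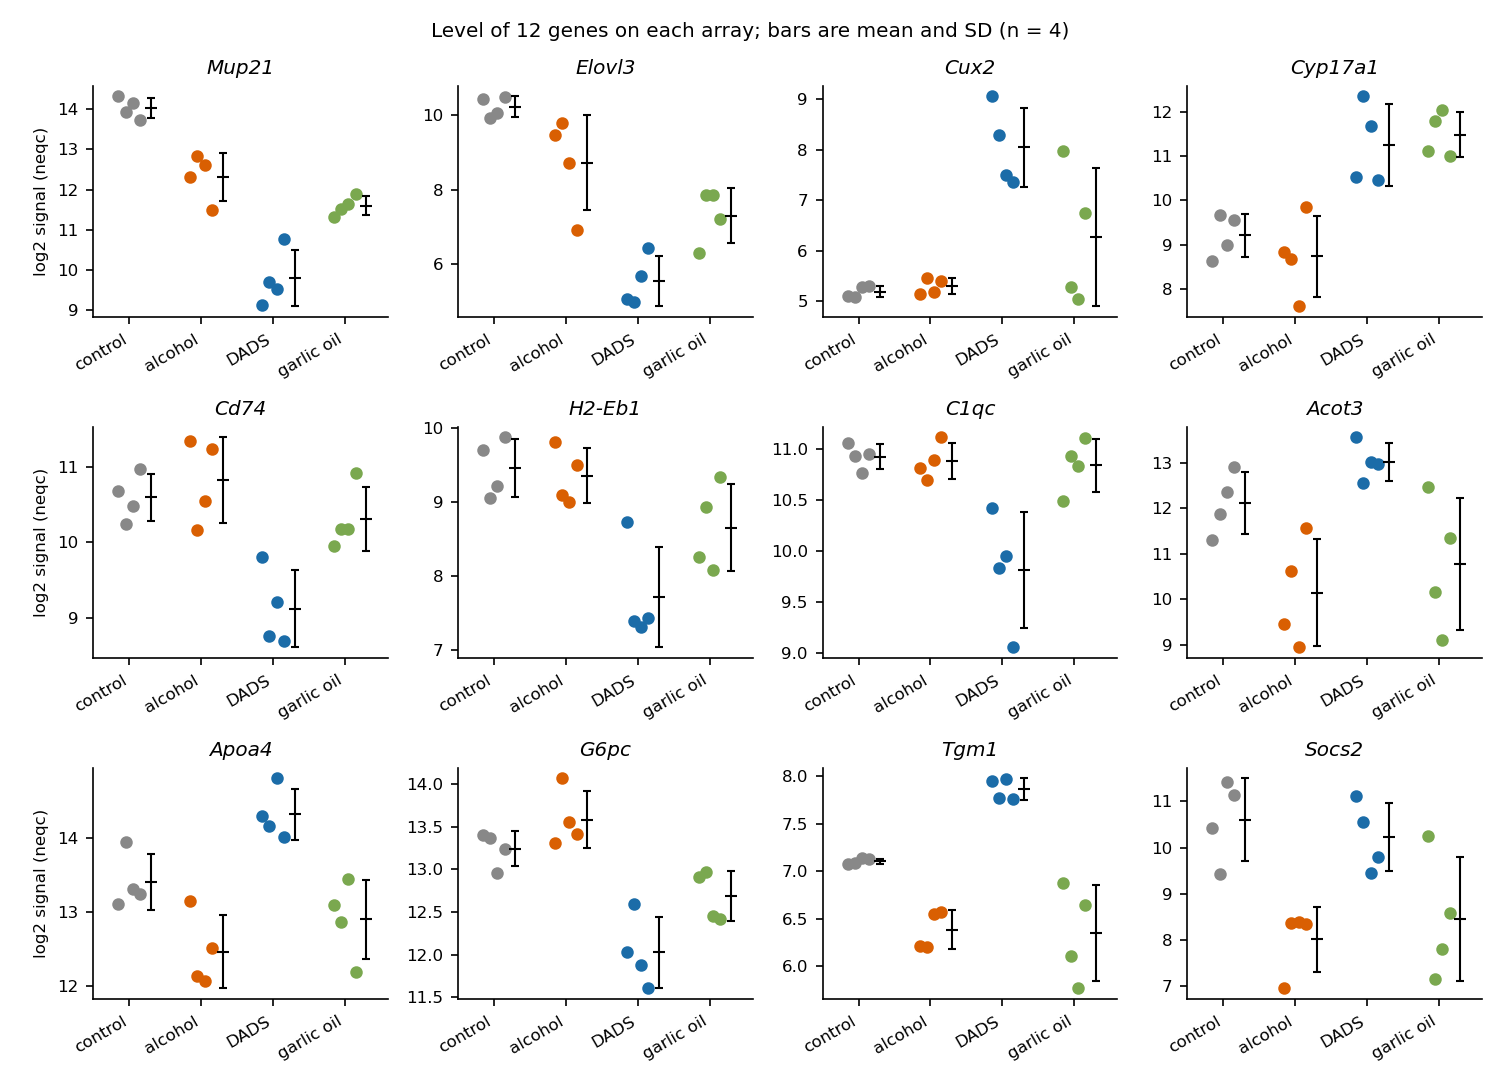
Log2 level of 12 named genes on each of the 16 arrays by group; points are arrays in replicate order and bars the mean and SD (n = 4). The DADS and alcohol points do not overlap in any of the 12 genes; Cyp17a1 has a garlic oil mean of 11.49, close to the DADS points, whereas the garlic oil points of Tgm1 lie around those of alcohol.

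Lists of heat shock (15 measured), oxidative phosphorylation (36), proteasome (28), iron and heme (26), histone deacetylation (18), aryl hydrocarbon receptor (4), cholangiocyte (3), neutrophil (4), adipocyte (1) and pancreatic acinar genes (7) had no member past the test, against 3.03% of all genes. Of the proteasome genes 25 were higher, with a median of 0.18. Of 29 interferon-responsive genes Bst2, a virus-tethering membrane protein, fell (-0.87 ± 0.18, adjusted p = 0.0191), against 1.69% of all genes. Bst2 lost its call without DADS replicate 3 or alcohol replicate 3, and its DADS minus garlic oil was -0.13 (adjusted p = 0.767). Of 19 inflammatory genes Cd14, the lipopolysaccharide coreceptor, fell (-0.92 ± 0.24, adjusted p = 0.04997), against the same 1.69%. Cd14 lost its call without any 1 of 7 arrays. It was detected on 3 of 4 DADS arrays, and of the 14 inflammatory genes detected on all 8 arrays 0 fell. The number of fallen inflammatory genes was 4 without DADS replicate 1 and 0 without any other 1 of the 8 arrays. Of 12 cell division genes Cdc20 (at least 1.58-fold lower, adjusted p = 0.0333) and Mcm5 (-0.78 ± 0.19, adjusted p = 0.034) fell. Over all genes tested 1.69% fell. Cdc20 passed the detection filter through its alcohol arrays, and of the 9 members detected on all 8 arrays 1 fell. The calls of Cdc20 and Mcm5 were each lost without any 1 of 5 arrays. DADS minus garlic oil was -0.15 for Mcm5 (adjusted p = 0.731). Genes already named made up the changed members of the remaining lists, where 1.35% of all genes rose and 1.69% fell. Apoa4 and Vldlr rose among 34 lipid droplet and lipoprotein genes, and Fgf21 and Vldlr among 26 ATF4 and endoplasmic reticulum stress genes. Gadd45a rose and Lpin1 fell among 19 glucocorticoid targets, and Gadd45a rose and Tsc22d1 fell among 16 cell cycle arrest and DNA damage genes. Vldlr and Gadd45a are thus counted in more than 1 of these lists. Tsc22d1 passed the detection filter through its alcohol arrays. Of the 10 cell cycle arrest and DNA damage genes detected on all 8 arrays 1 rose and 0 fell.

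Of the 77 named genes tested, 60 changed, and 41 of these passed again when the data were normalized and fitted without the acinar array. In every alternative run that tested them, 22 passed. The 22 were Alas2, Apoa4, C6, C9, Car3, Cd74, Ces3b, Cux2, Cyp17a1, Cyp2b9, Cyp2c39, Elovl3, G6pc, H2-Aa, H2-Ab1, H2-DMa, H2-Eb1, Mup21, Ppara, Slc51b, Tgm1 and Tsc22d1. Of these, Cux2, Cyp2c39, Elovl3, Slc51b and Tsc22d1 were tested in 20 of the 21 runs. The run limited to genes detected on all 8 arrays left them out.

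**Figure D4:**
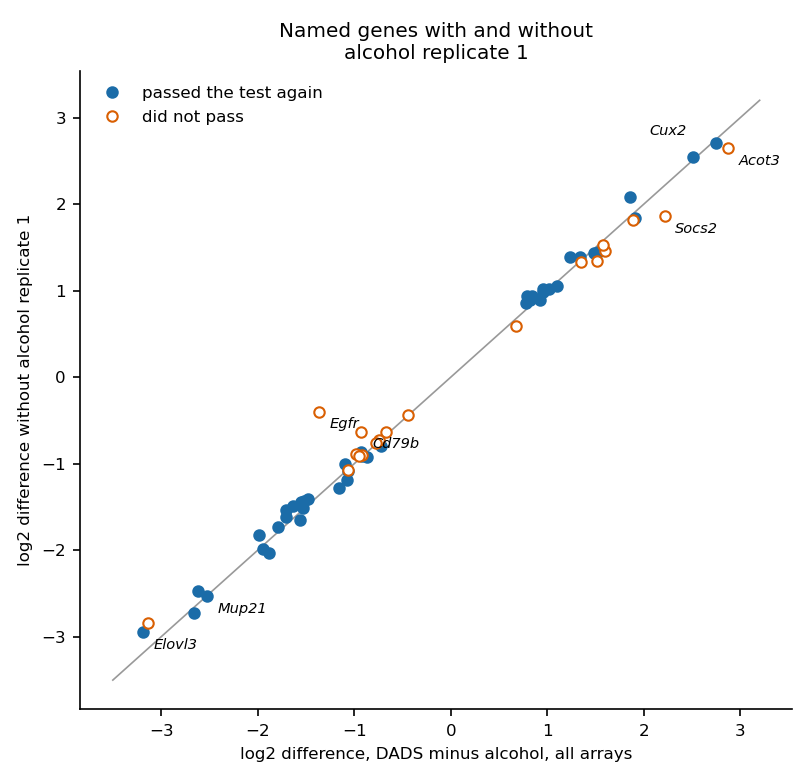
Log2 difference, DADS minus alcohol, of the 60 changed named genes with all arrays (horizontal axis) and with data normalized and fitted again without alcohol replicate 1 (vertical axis); the line marks equal values and open points are genes that did not pass again. All points keep their sign, and 41 passed again. Egfr moved from -1.36 to -0.40, but a different probe stood for it in the second fit.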

How the data were processed

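Total RNA from liver was labelled as biotin cRNA from 500 ng and hybridised to 1-colour Illumina BeadChips, 1 mouse an array, per the labels' protocols. Each array file gives the deposited intensity, a linear mean over beads, without background subtraction or normalization (lowest value 47.9). A deposited detection p-value beside each signal compares the probe with negative controls, per the file headers. A further deposited table of intensity was normalized by the authors; how is not given in the sources used, and the submitters' processing notes name GenomeStudio, lumi and limma.

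Background correction and quantile normalization used neqc of limma 3.58.1 (offset 16; R 4.3.3). Probes detected at p under 0.05 on at least 4 of the 8 arrays were kept, and the brightest passing probe stood for its gene; 23978 probes had 1 symbol, 0 several and 1719 none, and 661 passing probes without a name were left out. The 16 arrays were fitted together with 4 group means and moderated two-sided tests (12 residual degrees of freedom), and p-values were adjusted by Benjamini-Hochberg over 7949 genes. Where a group's arrays missed detection, or its mean lay under the detection limit, a fold is a lower bound against that limit. The fit was tested on simulated data with 200 changed genes. The number of arrays limits the precision, and the labels call the mice biological replicates. Replicate numbers gave no known pairing of the mice. Same-numbered arrays' deviations correlated at -0.113, -0.381, 0.121 and -0.284, and those of different numbers at -0.251 to 0.457. So few values cannot decide whether the mice were paired.

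The named genes are the 14 largest rises and 14 largest falls that every array of the higher group detected, without provisional names and acinar genes, the changed list members with the smallest p (at most 4 a list), and fixed genes of alcohol, sulfur, lipid and growth hormone biology. Other genes named were chosen after their values were seen, among them H2-DMb1, Clec4f, Timd4, Vsig4, Hsd3b5 and Fabp1. Counts over members detected on all 8 arrays were added after the data were seen. The members and lists were chosen with earlier results of these data known, so lists are described by counts and medians beside those of all genes, with no test of a list. Promoters came from RefSeq tables.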

Additional observations from a re-analysis of the deposited data

Results flagged for a closer look

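Within groups of 4, an array was taken as standing apart when its gap to the nearest other array exceeded the 95% critical share of the group's range. Of 232 groups looked at, 16 had such an array, and chance gives about 1 in 20. Replicate 4 of both groups accounts for several. DADS replicate 4 read 11.91 for Cyp2b9 (others 13.14 to 13.38) and 11.61 for Cyp4a12a (others 9.194 to 9.494). Alcohol replicate 4 read 10.71 for Egfr (others 11.91 to 11.98), 12.55 for Serpina1e (others 15.61 to 15.81) and 5.693 for Chil3 (others 4.905 to 5.015), and its female-biased list median was -0.07848 (others -1.216 to -1.086).

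DADS replicate 1 read 8.728 for H2-Eb1 (others 7.303 to 7.43), 5.748 for Lpin1 (others 7.069 to 7.27) and 10.14 for Vldlr (others 9.283 to 9.397). Alcohol replicate 1, the array high in acinar genes, had an acinar list median of 7.808 (others -1.264 to -0.6567). The same array read 7.33 for Cd79b (others 6.119 to 6.205), 14.09 for Scd1 (others 15.37 to 15.43), 5.89 for Slc51b (others 5.236 to 5.332) and 6.954 for Socs2 (others 8.343 to 8.395). The cholesterol synthesis list had a median of -0.4612 on alcohol replicate 2 (others 0.01956 to 0.08955), and the proteasome list 0.09487 on alcohol replicate 3 (others -0.1198 to -0.107).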

How the results depend on the processing

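All 241 changed genes kept their sign in each of the 21 alternatives that tested them, but the number past the threshold varied. Leaving out 1 array gave 100 to 229 changed, 42 to 96 risen and 58 to 160 fallen genes. The 8 arrays alone gave 63 (27 risen, 36 fallen), with 61 of the 241 among them and 1285 at an unadjusted p under 0.05 against 1495. Normalizing again without the acinar array gave 140 (58 risen, 82 fallen), no filter on dim probes 135 (52 risen, 83 fallen; 16593 genes tested), and median scaling 798 (707 risen, 91 fallen). The authors' deposited table gave 177 (68 risen, 109 fallen). A replicate block gave 205 (83 risen, 122 fallen) and moved no count over 1.5 times. The other alternatives gave 199 to 260 changed genes. The cause of these differences was not tested, except that fewer arrays or more genes tested are part of the settings themselves. Of 60 changed named genes 38 lost their call in at least 1 alternative and 9 in at least 11 of them: Akr1d1, Apcs, Cd14, Cd79b, Cyp2b23, Fgf21, Serpina1e, Socs2 and Taldo1. Chip and treatment cannot be told apart, and genes read only by dim probes here, such as Fabp1, have only a bound.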

Other observations

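Several further changed genes were chosen after their values were seen. E2f1, a transcription factor of the G1 to S transition, read 6.23, 6.15, 5.49 and 5.85 with DADS and 7.06, 6.87, 7.09 and 6.80 with alcohol, and fell 2.04-fold (adjusted p = 0.00282, limma). Prc1, a cytokinesis protein, was at least 2.09-fold lower (adjusted p = 0.0191). E2f1 was higher with alcohol than in control mice by 0.65 (adjusted p = 0.0248), and Prc1, detected on all 4 alcohol arrays, was detected on no control array (adjusted p = 0.00634). The histone genes H2ac24, H2ac15, H2bc15 and H2bc14 fell by 0.55 to 0.62 on the log2 scale; in them DADS lay within 0.29 of garlic oil, on the same chip.

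Ccl21a, a chemokine of lymphatic endothelium, fell 2.81-fold (adjusted p = 0.0191), with its highest value, 8.98, on alcohol replicate 1, the array high in acinar genes. Pdpn, a lymphatic marker, was at least 1.62-fold lower (adjusted p = 0.0224) and was also highest there, at 6.84. Sort1, a sorting receptor of lipoprotein secretion, fell 1.91-fold (adjusted p = 0.00362) and lay close to garlic oil (-0.19, adjusted p = 0.544). Dio1, the deiodinase that activates thyroid hormone, fell 2.36-fold (adjusted p = 0.0093) and was lower than with garlic oil (-1.13, adjusted p = 0.019). Inhbe, a hepatokine, rose (0.76 ± 0.20, adjusted p = 0.0491) after a fall with alcohol against control (-1.11, adjusted p = 0.0055). Lcn2, an acute-phase gene of hepatocytes and neutrophils, reached 14.25 on DADS replicate 3 against 9.70 to 11.57 on the other DADS arrays and did not pass (adjusted p = 0.135).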
